A study of Mus musculus with 12 samples.

Results

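Cluster 7 is a group of 141 germinal center B cells among the 6000 cells of the deposited table. Its members are the cells to which the authors' Seurat clustering gave the number 7, and no other criterion was used. The authors' annotation places 131 of them in the dark zone (DZ) and 10 in the light zone (LZ), and their cell cycle call is G2M for all 141. The cells came from 3 mice given the hapten-carrier antigen NP-KLH in Sigma Adjuvant System and later tamoxifen by gavage. Draining lymph nodes were taken 5 days after tamoxifen, on day 16 of the primary response. Live IgD-negative eYFP+ B cells and plasma cells were sorted and sequenced with the 10x Genomics 5′ v2 assay. Of the 12 libraries in 6 groups, some hold transcripts and others hold antibody hashtags or receptor sequences. The gene counts of all cells are pooled into 1 matrix. Cluster 7 and the cells it is set against share this treatment and these mice, and the sources used here do not give the alleles behind the reporter, the strain or the age of the mice. The main comparison sets cluster 7 against the 2909 DZ cells of all other clusters, and further comparisons use the DZ cells of other clusters called G2M.

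In the germinal center, B cells divide and mutate their antibody genes in the dark zone and test the product against antigen in the light zone. Entry into mitosis is driven by cyclin B bound to the kinase CDK1, and exit from it by the anaphase-promoting complex, a ubiquitin ligase that marks cyclin B and other mitotic proteins for destruction. Transcripts of mitotic genes build up through G2 and are lost after division, whereas those of replication genes peak around the start of S phase. Many promoters of mitotic genes hold CCAAT boxes, bound by the factor NF-Y, and the cell cycle genes homology region (CHR), bound by the DREAM and MuvB complexes, while many promoters of replication genes hold E2F sites.

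Because the clusters were made from the gene counts of these same cells, gene differences between cluster 7 and other cells are given as descriptions, without tests. Raw unique molecular identifier (UMI) counts were summed per mouse and scaled to CPM (counts of a gene per 1000000 counts of the sum) with TMM factors. Ratios were taken within each mouse after adding 5 CPM, and a gene is called higher or lower where it differed over 2-fold in the same direction in each of the 3 mice. Only genes with a mean of at least 20 CPM over the sums of both groups were considered. Errors are SD over 3 mice throughout.

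The mice gave 22, 48 and 71 cells to cluster 7, of 1491, 2079 and 2430 cells in all. Its share was 1.48%, 2.31% and 2.92% of each mouse's cells, or 2.24% ± 0.726, largest in mouse 3 and smallest in mouse 1. Among the DZ and LZ cells called G2M, cluster 7 made up 7.51%, 10.3% and 14.3%. DZ cells were 92.3% ± 1.82 of the DZ and LZ cells of cluster 7, against 57.2% ± 3.24 of those of all other clusters. The other clusters include cells in G1 and S phase, so these shares are not matched on phase. Among cells called G2M, cluster 3 held 346 DZ and 27 LZ cells, and cluster 1 held 515 DZ and 168 LZ cells. A large DZ share was thus not particular to cluster 7. The sums held 223634, 621952 and 862215 UMIs, so values for mouse 1 rest on the fewest counts. All 141 cells lay in the larger of the 2 barcode series, of 5878 and 122 cells, and no barcode was shared between the series.

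The identity of the cells was checked against marker genes. All 12 germinal center markers were measured, and none was called higher or lower than in DZ cells of other clusters, with a median log2 ratio of 0.18 against -0.08 over all 5206 genes considered. The median of the 12 B cell markers was -0.04, and again none was called. Prdm1, the regulator of plasma cell fate, had 0 UMIs in cluster 7, which allows at most 1.76 CPM before TMM scaling, and averaged 0.350 CPM in DZ cells of other clusters, so a difference was not detectable at this depth. Of 48 markers of T cells, NK cells, myeloid, dendritic, stromal and erythroid cells, the 40 seen in at most 5% of other DZ cells were used. Apoe, Cd2, Fcer2a, Ctsb, Flt3, Cr2, Bst2 and Pecam1 were left out, as 13.6% to 60.3% of those cells held them. Low counts of the 40 in other DZ cells thus follow from the choice. Of the 141 cells 26 held at least 1 UMI of the 40 markers, 3 held 2 and none held more. Of the 2909 other DZ cells 80 held 2 or more. The label of germinal center cells therefore matches the germinal center and B cell markers.

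Leaving out immunoglobulin genes, most leading genes that set cluster 7 apart from other DZ cells were genes of mitosis or DNA replication. The upstream regions of 5 of them are printed here because they belong to leading members of both groups. Each sequence holds the 250 bases before the annotated start of the gene in RefSeq on build GRCm38.p6, written 5′ to 3′ on the gene's strand. Capitals mark the CHR letters TTTGAA, the CCAAT box CCAAT and the E2F letters TTTCGCGC or TTTGGCGC, each searched on both strands. The regions are chr2:164769679-164769928 (plus strand) for Ube2c, chr4:118437344-118437593 (minus strand) for Cdc20, chr1:189688087-189688336 (minus strand) for Cenpf, chr1:128359706-128359955 (minus strand) for Mcm6 and chr5:33652575-33652824 (minus strand) for Slbp. The first 3 genes were higher in cluster 7 and the last 2 lower.
Ube2c: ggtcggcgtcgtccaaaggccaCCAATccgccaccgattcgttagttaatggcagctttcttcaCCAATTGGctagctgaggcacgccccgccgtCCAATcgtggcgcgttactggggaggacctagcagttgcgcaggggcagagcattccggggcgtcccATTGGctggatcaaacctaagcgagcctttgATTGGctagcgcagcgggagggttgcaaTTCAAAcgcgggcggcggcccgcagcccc
Cdc20: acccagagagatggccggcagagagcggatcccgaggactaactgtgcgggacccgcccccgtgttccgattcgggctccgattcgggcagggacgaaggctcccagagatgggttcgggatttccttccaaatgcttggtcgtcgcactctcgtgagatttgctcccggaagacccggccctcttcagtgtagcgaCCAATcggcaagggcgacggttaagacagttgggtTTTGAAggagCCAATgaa
Cenpf: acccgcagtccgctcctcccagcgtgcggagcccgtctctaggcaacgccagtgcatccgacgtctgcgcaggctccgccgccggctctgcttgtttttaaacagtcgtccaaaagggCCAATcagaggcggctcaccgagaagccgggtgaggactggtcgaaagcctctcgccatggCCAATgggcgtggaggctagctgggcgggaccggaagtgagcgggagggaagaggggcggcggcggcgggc
Mcm6: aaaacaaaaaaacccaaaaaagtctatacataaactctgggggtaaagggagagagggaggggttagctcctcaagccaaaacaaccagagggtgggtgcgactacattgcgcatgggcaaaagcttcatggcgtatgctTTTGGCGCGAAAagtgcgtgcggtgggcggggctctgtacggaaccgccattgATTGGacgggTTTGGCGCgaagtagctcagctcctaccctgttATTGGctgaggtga
Slbp: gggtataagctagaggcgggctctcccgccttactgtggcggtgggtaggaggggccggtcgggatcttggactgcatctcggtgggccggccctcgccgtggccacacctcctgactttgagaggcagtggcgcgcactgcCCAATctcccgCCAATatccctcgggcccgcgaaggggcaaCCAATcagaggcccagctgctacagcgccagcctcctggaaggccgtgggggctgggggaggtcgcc

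Ube2c holds 6 CCAAT matches, of which 2 overlap by 2 bases, and 1 CHR match near the start of the gene. Cdc20 holds 2 CCAAT matches and 1 CHR match, and Cenpf holds 2 CCAAT matches and no CHR match. Mcm6 holds 3 E2F matches, of which 2 overlap, and 2 CCAAT matches, and Slbp holds 3 CCAAT matches. Of the 30 genes named below, 24 had an upstream region in the RefSeq table. A CCAAT box was found for 13 of 13 matched higher genes and for 9 of 11 matched lower genes, beside 33.8% of all 32851 upstream regions. A CHR match was found for 4 of the 13 higher genes, Ube2c, Kpna2, Cdc20 and Cdk1, and for 1 of the 11 lower genes, Mcm2, beside 16.0% of all regions. An E2F match was found for 1 higher gene, Cdk1, and for 2 lower genes, Mcm6 and Dtl, beside 0.654% of all regions. Fam110a counts through 1 of its 3 listed starts.

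Against DZ cells of other clusters, 105 of 5206 genes (2.02%) were over 2-fold higher in cluster 7 in every mouse, and 49 (0.941%) were over 2-fold lower, 8 of them immunoglobulin genes. The higher genes were led by partners of the anaphase-promoting complex, kinetochore and spindle genes and cyclin B. Ube2c, the ubiquitin-conjugating enzyme that works with the anaphase-promoting complex, had 2821, 2809 and 2891 CPM in cluster 7, against 343, 362 and 380 CPM in the other DZ cells. The groups were far apart and the mice close together, with a log2 ratio of 2.96 ± 0.06. Cenpf, a kinetochore protein, had 1449, 1195 and 1217 CPM in cluster 7, against 161, 158 and 184 CPM (log2 ratio 2.90 ± 0.22). Ccnb1, which encodes cyclin B1, had 753, 731 and 716 CPM in cluster 7, against 105, 112 and 122 CPM (log2 ratio 2.65 ± 0.14). Kpna2, an importin that also acts in spindle assembly, had 1118, 929 and 977 CPM in cluster 7, against 158, 167 and 180 CPM (log2 ratio 2.54 ± 0.21). Mouse 1 was the highest of the cluster 7 mice for Cenpf and Kpna2, and the 3 mice were close together for Ube2c and Ccnb1.

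**Figure D1:**
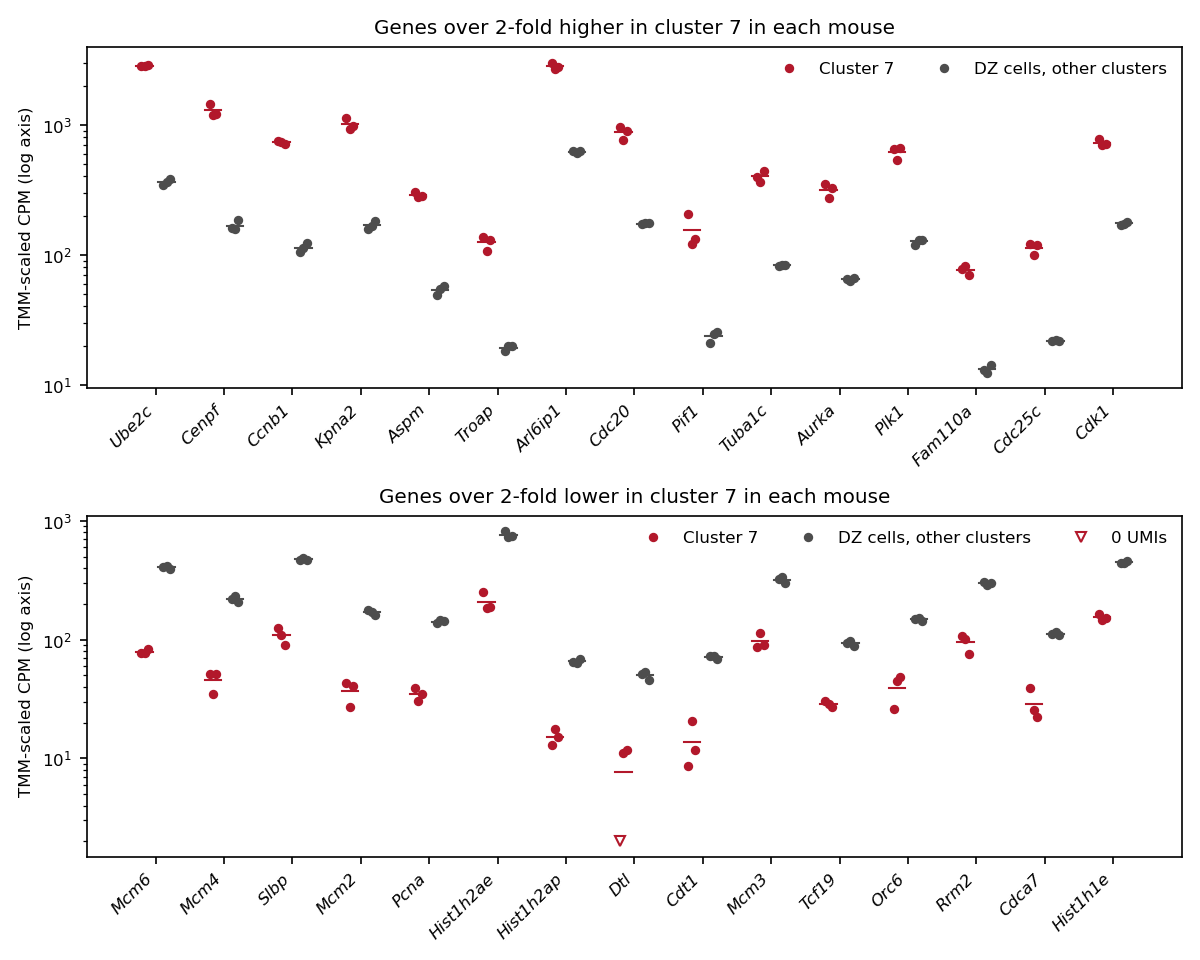
CPM (log axis) of the 15 named higher and 15 named lower genes in cluster 7 and in DZ cells of other clusters, with a point per mouse and a line at the mean, and an open triangle for 0 UMIs. Ube2c sits at 2809 to 2891 CPM in cluster 7 and Mcm6 at 76.4 to 82.9 CPM, and the groups do not overlap in any gene shown. The rule for naming genes asks for over 2-fold within each mouse, so a gap within mice was built in and adds no support.

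Nearly all cyclins and CDK1 regulators were higher. Of 11 members considered, 10 were called higher and none lower, with a median log2 ratio of 1.70. Cdk1 itself had 778, 699 and 704 CPM in cluster 7, against 171, 172 and 179 CPM in other DZ cells (log2 ratio 2.03 ± 0.11). Ccnb2, cyclin B2, averaged 724 ± 16.7 CPM in cluster 7 and 274 ± 3.43 CPM in other DZ cells. Ccna2, cyclin A2, averaged 614 ± 102 CPM in cluster 7 and 205 ± 5.69 CPM in other DZ cells. Cdc25c, a phosphatase that activates CDK1, averaged 112 ± 11.9 CPM in cluster 7 and 21.7 ± 0.130 CPM in other DZ cells. Pkmyt1, a kinase that inhibits CDK1, was the member considered that was not called, at 25.4 CPM in cluster 7 and 36.3 CPM in other DZ cells.

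Among the anaphase-promoting complex, its partners and the spindle checkpoint, 5 of 14 members were called higher and the median was 0.40. The called members were the enzyme Ube2c, the activators Cdc20 and Fzr1, the checkpoint protein Bub3 and the protease separase, Espl1. Cdc20 had 955, 766 and 898 CPM in cluster 7, against 171, 174 and 175 CPM in other DZ cells (log2 ratio 2.29 ± 0.17). Fzr1 averaged 296 ± 13.2 CPM in cluster 7 and 85.3 ± 2.68 CPM in other DZ cells. The core subunits on the list showed no such difference: Anapc5, Anapc11, Anapc13, Cdc16 and Cdc26 had log2 ratios of -0.31 ± 0.28, -0.23 ± 0.23, -0.23 ± 0.25, -0.15 ± 0.45 and -0.23 ± 0.10.

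Of 11 mitotic kinases 5 were called higher, with a median of 1.10. Plk1, polo-like kinase 1, had 649, 540 and 661 CPM in cluster 7, against 119, 130 and 130 CPM in other DZ cells. Aurka, the centrosomal Aurora kinase, had 353, 271 and 328 CPM in cluster 7, against 64.9, 62.5 and 66.3 CPM. The checkpoint kinases Bub1 and Bub1b had smaller log2 ratios, 1.02 ± 0.10 and 1.10 ± 0.14, and did not pass 2-fold in all mice.

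Motor and spindle genes were also mostly higher. All but Kif15 of the 12 kinesins considered were called, with a median of 1.64, and Kif23, which acts at the spindle midzone, averaged 401 ± 32.8 CPM in cluster 7 and 96.6 ± 5.74 CPM in other DZ cells. Of 18 spindle assembly genes 15 were called higher, with a median of 1.74. Aspm, a spindle pole protein, averaged 287 ± 12.0 CPM in cluster 7 and 53.7 ± 4.05 CPM in other DZ cells. Troap, a protein of spindle microtubules, averaged 125 ± 16.1 CPM in cluster 7 and 19.3 ± 0.858 CPM in other DZ cells. Of 11 cytokinesis genes 9 were called, among them Prc1, which bundles midzone microtubules, with a log2 ratio of 1.95 ± 0.18.

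Tubulins, centromere proteins and condensins differed less. Of 7 tubulins 2 were called, Tuba1c at a log2 ratio of 2.20 ± 0.14 and Tubb4b at 1.77 ± 0.11, while Tubb5 and Tuba1b stood at 0.87 ± 0.12 and 0.82 ± 0.08. These genes have near-identical copies, and the sources used here do not say how reads were shared among them. Of 18 centromere and kinetochore genes 6 were called, with a median of 0.71. Cenpf and Cenpe, which join the kinetochore late, had log2 ratios of 2.90 ± 0.22 and 1.59 ± 0.11, whereas the core members Cenpq and Cenpk had 0.07 ± 0.19 and 0.18 ± 0.01. Of 15 condensin, cohesin guard and passenger genes 6 were called, and Top2a, which untangles chromosomes, had a log2 ratio of 0.99 ± 0.03.

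Other named higher genes have no place on these lists. Arl6ip1, a membrane protein of the endoplasmic reticulum, had 3006, 2683 and 2759 CPM in cluster 7, against 628, 608 and 627 CPM in other DZ cells (log2 ratio 2.17 ± 0.07), a level close to that of Ube2c. Pif1, a DNA helicase, averaged 154 ± 46.2 CPM in cluster 7 and 23.6 ± 2.33 CPM in other DZ cells, with mouse 1 of cluster 7 at 206 CPM above the other mice at 121 and 133 CPM. Fam110a, a spindle pole protein, averaged 76.2 ± 5.63 CPM in cluster 7 and 13.2 ± 0.904 CPM in other DZ cells.

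Immunoglobulin and predicted genes were left out when genes were named. Among the other lower genes, those of the machinery that loads and fires replication origins led. The immunoglobulin gene Iglv2, also lower, is given below with light chain use. Of 10 origin licensing genes 8 were called lower and none higher, with a median log2 ratio of -1.95. Mcm6, a subunit of the replicative helicase, had 77.4, 76.4 and 82.9 CPM in cluster 7, against 408, 414 and 395 CPM in other DZ cells (log2 ratio -2.29 ± 0.09). Mcm4 and Mcm2, of the same helicase, averaged 46.0 ± 9.52 and 37.0 ± 8.66 CPM in cluster 7, against 220 ± 14.1 and 169 ± 7.52 CPM in other DZ cells. Cdt1, which helps load the helicase, had 8.60, 20.7 and 11.7 CPM in cluster 7, against 73.3, 72.7 and 68.6 CPM in other DZ cells. The level of Cdt1 differed among the mice of cluster 7 but stayed below that of every mouse of the other DZ cells. Dtl, part of the ligase that destroys CDT1 in S phase, had 0 UMIs in mouse 1 of cluster 7, which allows up to 13.4 CPM before TMM scaling, and 11.1 and 11.7 CPM in mice 2 and 3, against 51.1, 53.5 and 45.6 CPM in other DZ cells.

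Of 25 genes of the replication fork 8 were called lower, with a median of -1.04. Pcna, the sliding clamp of DNA polymerases, had 38.7, 30.2 and 35 CPM in cluster 7, against 137, 145 and 142 CPM in other DZ cells (log2 ratio -1.89 ± 0.20). Of 8 genes of deoxynucleotide supply 2 were called, Dut and Rrm2, a subunit of ribonucleotide reductase, and Rrm2 averaged 95.1 ± 16.8 CPM in cluster 7 and 299 ± 9.97 CPM in other DZ cells. The other subunit, Rrm1, stood at 191 CPM in cluster 7 and 227 CPM in other DZ cells, a log2 ratio of -0.25 ± 0.11.

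Histone genes that are transcribed with replication gave 6 lower and no higher calls among 14 considered, with a median of -1.19. Hist1h2ae had 254, 183 and 188 CPM in cluster 7, against 819, 724 and 740 CPM in other DZ cells (log2 ratio -1.86 ± 0.16). Slbp, the protein that binds the stem loop of histone transcripts, had 125, 110 and 90.0 CPM in cluster 7, against 466, 484 and 471 CPM in other DZ cells (log2 ratio -2.09 ± 0.23). Most histone transcripts have no poly(A) tail and their genes have near-identical copies, so these counts cover only the part that the assay captured and assigned. H2afx, a histone variant gene outside this list, was instead higher, at 2856 ± 334 CPM in cluster 7 and 990 ± 30.1 CPM in other DZ cells.

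**Figure D2:**
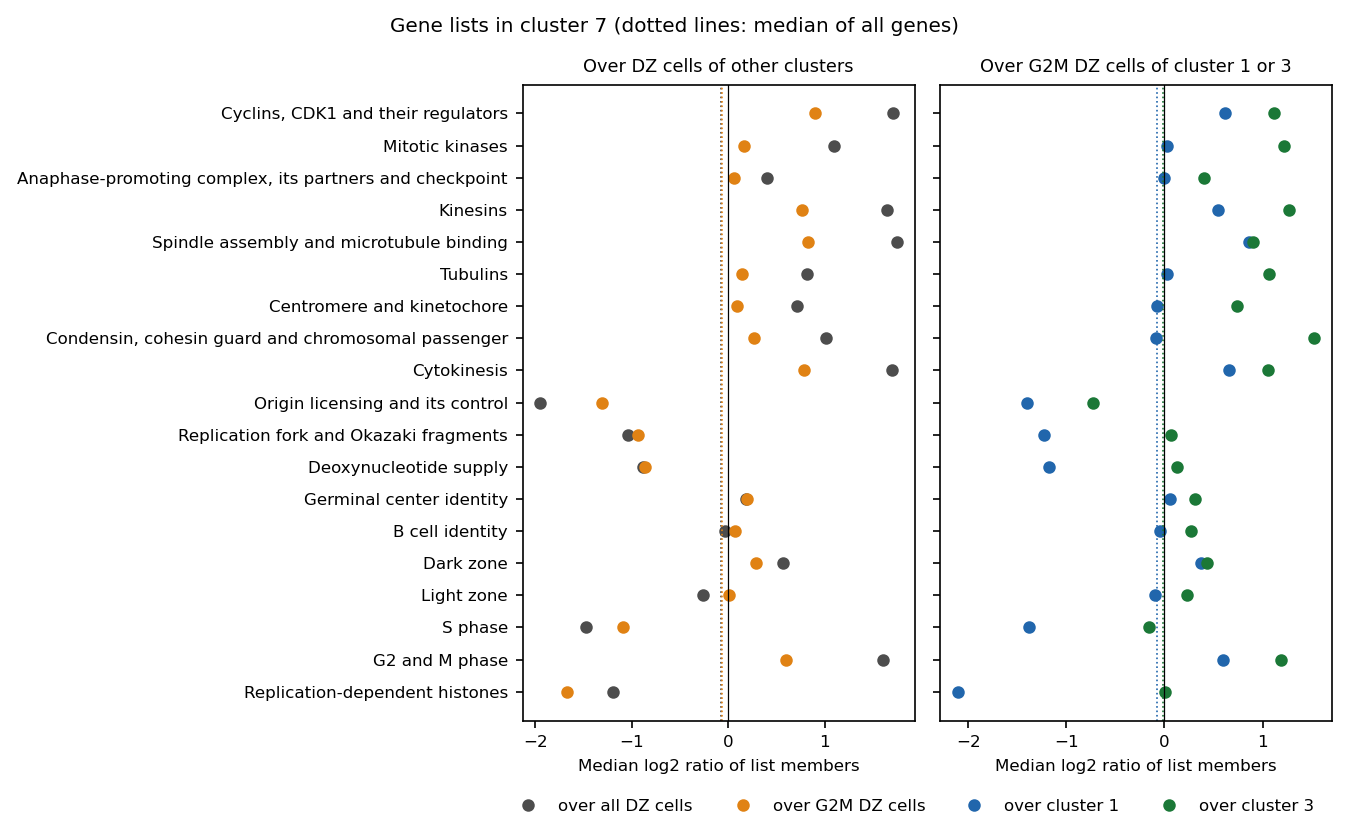
Median log2 ratio of the members considered in each gene list, in cluster 7 over DZ cells and over G2M DZ cells of other clusters (left) and over the G2M DZ cells of clusters 1 and 3 (right), with dotted lines at the median of all genes. The cyclin list stands at 1.70 over all DZ cells and 0.90 over G2M DZ cells, and the histone list at -2.11 over cluster 1 and 0.01 over cluster 3.

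Light zone and germinal center genes differed little beside these groups, while dark zone genes were mostly higher. Of 13 dark zone genes considered 12 had a log2 ratio above 0, with a median of 0.57. Against DZ cells of other clusters called G2M, 12 of 13 were also above 0, with a median of 0.29 and 2 called higher. Against all other DZ cells 5 were called higher, and 4 of these, Ccnb1, Cdc20, Aurka and Kif2c, are themselves mitotic genes. The fifth, Polh, a DNA polymerase that acts in somatic hypermutation, had 168, 167 and 168 CPM in cluster 7, against 66.8, 74.5 and 74.6 CPM in other DZ cells. Cxcr4, the chemokine receptor that holds cells in the dark zone, averaged 102 ± 22.2 CPM in cluster 7 and 84.0 ± 6.70 CPM in other DZ cells. Foxo1, a transcription factor of the dark zone, had a log2 ratio of 0.13 ± 0.27.

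None of 15 light zone genes was called, with a median of -0.27. Cd83 averaged 65 ± 12.7 CPM in cluster 7 and 105 ± 1.82 CPM in other DZ cells, and the costimulatory ligand Cd86 averaged 54.8 ± 15.8 CPM in cluster 7 and 65.3 ± 2.18 CPM in other DZ cells. Bcl6, the defining repressor of germinal center cells, averaged 44.8 ± 8.71 CPM in cluster 7 and 60.2 ± 3.52 CPM in other DZ cells. Bach2, a repressor of plasma cell fate, had 237, 213 and 235 CPM in cluster 7, against 160, 147 and 154 CPM in other DZ cells. Its log2 ratio of 0.55 ± 0.04 was under 2-fold. Myc, Irf4 and Pax5 had log2 ratios of -0.77 ± 0.62, -0.16 ± 0.52 and -0.02 ± 0.27. The lists of cytosolic ribosomal proteins, translation factors, the respiratory chain, mitochondrially encoded genes and both classes of antigen presentation gave no call, with medians between -0.22 and 0.07. Small shifts were still shared by members of some lists, beside a median of -0.08 over all genes considered. Of ribosomal protein genes 0 of 24 had a log2 ratio above 0, and their summed CPM was 67924, 75046 and 71851 in cluster 7, against 82872, 82222 and 84031 in other DZ cells. Above 0 were 2 of 15 translation factors, 3 of 19 respiratory chain genes and 2 of 13 mitochondrially encoded genes. For antigen presentation these were 3 of 13 genes of class II and 9 of 12 of class I. The share of all genes above 0 was not counted. Medians of -0.06 for mitochondrially encoded genes and -0.09 for class II were near that of all genes. Their counts therefore show no shift particular to these lists.

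On the list of G2 and M phase genes 20 of 24 were called higher than in DZ cells of other clusters, with a median of 1.60, and on the S phase list 14 of 22 were called lower, with a median of -1.48. Mki67, the marker of dividing cells, had 899, 826 and 840 CPM in cluster 7, against 413, 422 and 416 CPM in other DZ cells, a log2 ratio of 1.03 ± 0.08 that did not pass 2-fold in every mouse. The other DZ cells include cells in G1 and S phase, so a second comparison was restricted to the 881 of them called G2M. Against these, 15 of 5168 genes (0.29%) were higher in cluster 7 and 33 (0.639%) were lower, 6 of them immunoglobulin genes. All 15 higher genes were also among the 105. The named ones were Ube2c, Fam110a, Cenpf, Kpna2, Ccnb1, Arl6ip1, Psrc1, Troap, Tuba1c, Reep4, Gas2l3, Aspm, Pif1 and Cdc20. Ube2c had a log2 ratio of 1.81 ± 0.06, Ccnb1 of 1.56 ± 0.17 and Arl6ip1 of 1.42 ± 0.06. Reep4, which keeps the endoplasmic reticulum off mitotic chromosomes, had a log2 ratio of 1.25 ± 0.19. Plk1, Aurka and Cdk1 no longer passed 2-fold in each mouse, at 1.08 ± 0.17, 1.10 ± 0.13 and 1.08 ± 0.09.

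The 881 cells came mainly from cluster 1, with 515, and cluster 3, with 346. Distance to cluster 7 was taken as the root mean square difference of log2 CPM over 5222 genes. It was computed for clusters 0, 1, 2 and 3, the other clusters with at least 100 DZ or LZ cells. Among these, the DZ and LZ cells of clusters 3 and 1 were the nearest, at 0.596 ± 0.122 for cluster 3 and 0.618 ± 0.106 for cluster 1. Cluster 3 was the nearer in each of the 3 mice, at 0.737, 0.531 and 0.519 for cluster 3 and 0.740, 0.551 and 0.564 for cluster 1. Cluster 7 was therefore set against the G2M DZ cells of each, a choice made after the values had been seen.

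Against cluster 1, the main difference was in histone and replication genes, which were lower in cluster 7. Of 5178 genes 19 (0.367%) were higher in cluster 7 and 66 (1.27%) lower. Of 14 histone genes 11 were called lower, with a median log2 ratio of -2.11. Hist1h2ae averaged 208 ± 39.4 CPM in cluster 7 and 1887 ± 150 CPM in cluster 1, a log2 ratio of -3.16 ± 0.14. Slbp averaged 108 ± 17.4 CPM in cluster 7 and 468 ± 14.7 CPM in cluster 1. Of 20 S phase genes considered 13 were called lower, with a median of -1.38.

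Of 24 G2 and M phase genes 4 were called higher than in cluster 1, 21 had a log2 ratio above 0 and the median was 0.60. Ube2c averaged 2841 ± 44.5 CPM in cluster 7 and 1054 ± 51.7 CPM in cluster 1, and Cenpf 1287 ± 141 CPM in cluster 7 and 428 ± 38.2 CPM in cluster 1. Ccnb1 averaged 733 ± 18.4 CPM in cluster 7 and 245 ± 21.2 CPM in cluster 1, and Cdc20 873 ± 97.1 CPM in cluster 7 and 287 ± 13.0 CPM in cluster 1. Knstrn and Psrc1, proteins of spindle microtubules, had log2 ratios of 1.31 ± 0.16 and 1.44 ± 0.20. Ptms, which encodes parathymosin, had the leading place by the naming rule, at 78.2 ± 7.13 CPM in cluster 7 and 20.7 ± 4.12 CPM in cluster 1. In contrast, Aurkb, the kinase of the chromosomal passenger complex, averaged 408 ± 44.8 CPM in cluster 7 and 400 ± 27.8 CPM in cluster 1, and Mki67, Kif11 and Top2a had log2 ratios of 0.08 ± 0.01, -0.07 ± 0.01 and -0.25 ± 0.02.

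Against cluster 3, nearly all differences ran toward higher levels in cluster 7. Of 5138 genes 76 (1.48%) were higher and 4 (0.0779%) lower, 3 of them immunoglobulin genes and the other Snhg20, a small nucleolar RNA host gene. Kpna2 averaged 1008 ± 98.2 CPM in cluster 7 and 95.1 ± 11.2 CPM in cluster 3, a log2 ratio of 3.34 ± 0.07. Cdk1 averaged 727 ± 44.5 CPM in cluster 7 and 76.2 ± 15.2 CPM in cluster 3 (3.19 ± 0.23), and Aurkb 408 ± 44.8 CPM in cluster 7 and 43.5 ± 5.42 CPM in cluster 3 (3.09 ± 0.32). Top2a, Nusap1, a microtubule binding protein, and Bub3 had log2 ratios of 2.37 ± 0.10, 2.82 ± 0.25 and 2.35 ± 0.13.

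On the list of G2 and M phase genes, all 24 had a log2 ratio above 0 against cluster 3, 12 were called higher and the median was 1.19. Some mitotic genes had small ratios, with Ccnb2 and Cenpa shown here as examples chosen after values had been seen. Ccnb2 averaged 724 ± 16.7 CPM in cluster 7 and 717 ± 4.66 CPM in cluster 3, a log2 ratio of 0.01 ± 0.04, although the kinase subunit Cdk1 differed by 3.19. Cenpa, the histone H3 variant of centromeres, averaged 713 ± 55.4 CPM in cluster 7 and 611 ± 49.9 CPM in cluster 3, and Cdc20 873 ± 97.1 CPM in cluster 7 and 611 ± 63.1 CPM in cluster 3. The 13 histone genes considered had a median of 0.01, and none was called. Hist1h2ae stood at 208 ± 39.4 CPM in cluster 7 and 145 ± 16.0 CPM in cluster 3. Hist1h2ae, Hist1h2ap, Tcf19, a transcription factor gene, and Rrm2 were lower than in all DZ cells but had log2 ratios above 0 against cluster 3, of 0.49 ± 0.22, 0.90 ± 0.22, 0.27 ± 0.26 and 0.52 ± 0.36, that of Tcf19 no larger than its spread between mice. Of the 15 named lower genes, none was called lower against cluster 3. Of the 49 genes lower than in all DZ cells, 37 were considered against cluster 3, and the mean log2 ratio was below 0 for 29 of them, while 45 were considered against cluster 1 and all 45 were below 0. The 9 origin licensing genes considered against cluster 3 had a median of -0.73, with 3 of them above 0.

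**Figure D3:**
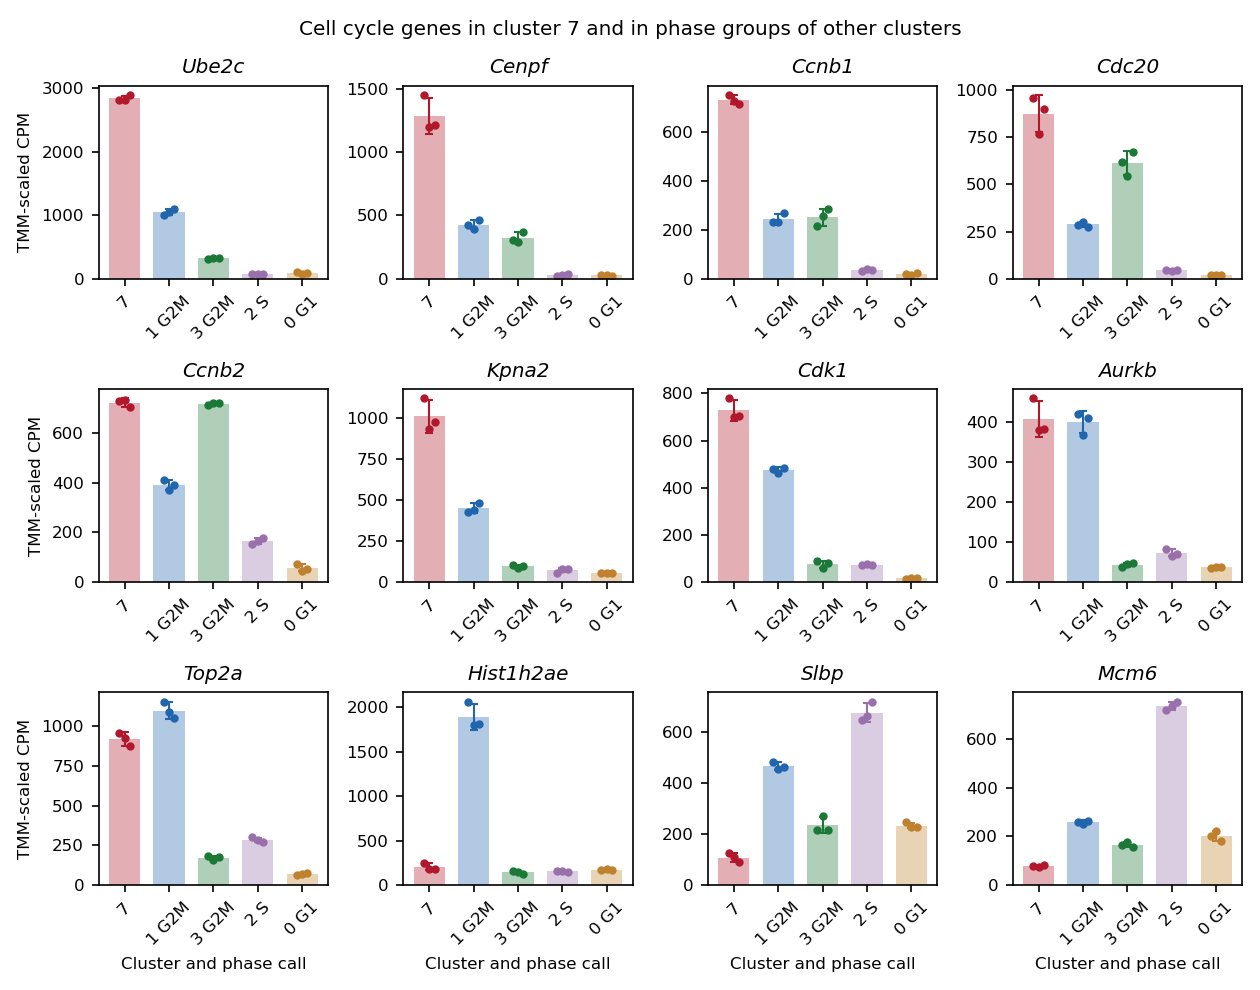
Mean CPM with SD and a point per mouse for 12 cell cycle genes in cluster 7 and in DZ cells of cluster 1 called G2M, cluster 3 called G2M, cluster 2 called S and cluster 0 called G1. Ccnb2 is level between cluster 7 and cluster 3 at 724 and 717 CPM, Aurkb between cluster 7 and cluster 1 at 408 and 400 CPM, and Ube2c stands highest in cluster 7 at 2841 CPM.

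Of the 105 genes higher than in all DZ cells, the mean log2 ratio was above 0 for 103 against cluster 1 and for 105 against cluster 3, and 18 and 51 of them were called there. These comparisons share the cells of cluster 7, so their values are given side by side and not as separate evidence. Against LZ cells of other clusters, 174 of 5256 genes (3.31%) were higher and 72 (1.37%) lower, and all of the 105 were among the 174. All 15 named higher genes were above 0 against clusters 1 and 3, from 0.61 for Cdk1 to 1.71 for Fam110a against cluster 1 and from 0.51 for Cdc20 to 3.34 for Kpna2 against cluster 3.

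Values per cell are given for genes of the same cells whose sums are described above, so they add description and no separate support. Ube2c had a UMI in 141 of 141 cells of cluster 7, with a median of 34 UMIs and a range of 6 to 80, while the medians were 10 UMIs in cluster 1 and 2 in cluster 3 G2M cells. After every cell was thinned to 2000 UMIs, Ube2c was seen in 99.3% of cluster 7 cells (exact 95% interval 96.1 to 99.98), in 75% of cluster 1 (71.0 to 78.6) and in 43.8% of cluster 3 (38.5 to 49.2). In G1 DZ cells of cluster 0 the share was 16.4% (14.0 to 19.1), and in pre-memory cells 15.8% (12.3 to 19.8). How much of these shares is free RNA was not tested. Some pre-memory cells were called G2M, and the highest count in a pre-memory cell was 50 of their 204 Ube2c UMIs. No cell of cluster 7 or cluster 1 was too shallow to thin, and 1 cell of cluster 3, 8 of cluster 0 and 9 pre-memory cells were. The intervals pool cells of 3 mice and cover counting error only. Median depths before thinning were 10894 UMIs in cluster 7, 11379 in cluster 1, 7283.5 in cluster 3, 5714 in cluster 0 and 4119 in pre-memory cells.

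Other genes are given in the same way. In thinned cells Cdk1 was seen in 78.0% of cluster 7, 56.1% of cluster 1 and 14.5% of cluster 3, beside 4.13% in cluster 0 G1 cells, and in 100%, 97.1%, 40.5% and 9.44% before thinning. Cdc20 was seen in 81.6%, 39.8% and 67.5% of the thinned cells of clusters 7, 1 and 3, beside 4.36% in cluster 0, and in 99.3%, 89.3%, 90.5% and 11.5% before thinning. Hist1h2ae was seen in 30.5% of the thinned cells of cluster 7, 93.4% of cluster 1 and 25.2% of cluster 3, beside 31% in cluster 0, so the share in cluster 7 (exact 95% interval 23 to 38.8) was no higher than in G1 cells. Before thinning those shares were 73.8%, 99.8%, 66.5% and 63.1%.

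The number of UMIs per cell was compared over mice. It is the sum of the gene counts of the cells that were clustered, so it is not independent of the clusters and the p-values support nothing about them. Median UMIs per cell were 9287, 11166 and 10956 in cluster 7, against 7539, 8031.5 and 7488 in other DZ cells. Cluster 7 was higher in each mouse, by 1.36-fold on average (log2 ratio 0.44 ± 0.13, exact two-sided sign-flip permutation p = 0.25, the smallest that 3 mice allow). Against cluster 1 the log2 ratio was -0.11 ± 0.12, and cluster 7 was lower in each mouse (exact permutation p = 0.25). Against cluster 3 it was 0.54 ± 0.08, a 1.45-fold higher median in cluster 7 (exact permutation p = 0.25). Over all 5 such tests, which include LZ cells and all G2M DZ cells, the smallest p after Benjamini-Hochberg adjustment of these exact permutation tests was 0.3125, and 3 mice cannot reach 0.05.

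**Figure D4:**
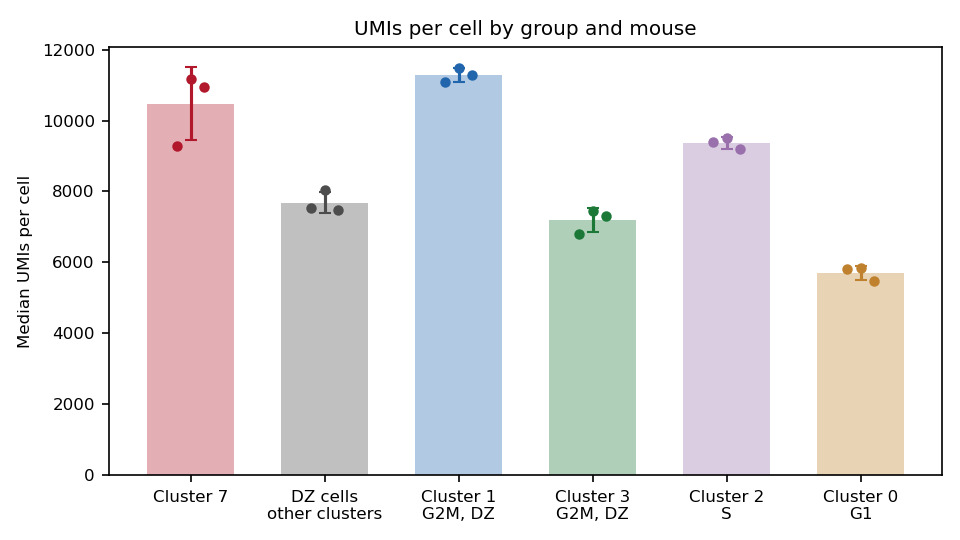
Median UMIs per cell in each mouse (points), with the mean and SD over 3 mice (bars), in cluster 7, DZ cells of other clusters and phase groups of DZ cells. Cluster 7 spans 9287 to 11166 UMIs, above the 7488 to 8031.5 of other DZ cells and close to cluster 1.

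The authors' scores are made from gene counts and are given as values only. The mean of the mouse medians of their dark zone score was 0.134 in cluster 7 and 0.0911 in other DZ cells, a difference of 0.043 ± 0.020. Their activation score was 0.260 in cluster 7, against 0.312 in other DZ cells and 0.318 in those called G2M. It was lower in cluster 7 in each mouse.

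The 10 LZ cells of cluster 7, 2, 4 and 4 per mouse, also held mitotic transcripts. Ube2c had a median of 3566 CPM per cell in the 10 LZ cells and 2779 CPM in the 131 DZ cells, Cdk1 638 CPM in LZ and 699 CPM in DZ cells, and Aspm 190 CPM in LZ and 277 CPM in DZ cells. After thinning to 2000 UMIs, Top2a was seen in 60% of the LZ cells (exact 95% interval 26.2 to 87.8) and 78.6% of the DZ cells (70.6 to 85.3). Aspm was seen in 20% of the LZ cells (2.52 to 55.6) and 49.6% of the DZ cells (40.8 to 58.5). For both genes the intervals overlap. All intervals in this paragraph pool cells of 3 mice and cover counting error only, so they are no test between the zones. Cd83 had a UMI in 10 of the 10 LZ cells and 45 of the 131 DZ cells, and after thinning in 70% of the LZ cells (34.8 to 93.3) and 7.63% of the DZ cells (3.72 to 13.6). Cxcr4 had a UMI in 4 of the 10 LZ cells and 88 of the 131 DZ cells. Its counts were 5 of 134102 UMIs in the LZ cells and 180 of 1573699 UMIs in the DZ cells. After thinning it was seen in 20% of the LZ cells (2.52 to 55.6) and 21.4% of the DZ cells (14.7 to 29.4). Thinning left 2 LZ cells with a Cxcr4 UMI, too few to decide whether the zones differ. The sources used here do not name the genes of the scores behind the annotation, so the zone genes are no test of it. Median depth was 12085.5 UMIs in the 10 LZ cells and 10839 in the 131 DZ cells.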

How the data were processed

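Droplet-based 5′ single-cell RNA sequencing was made from 3 mice, whose cells were told apart by antibody hashtags. The authors deposited a matrix of raw UMI counts, without normalization, and a table that gives each cell's mouse, annotation, cluster number and phase call. It also holds signature scores computed by the authors, whose genes the sources used here do not name. The submitters' processing notes name Cell Ranger and Seurat, without versions, and both mm10 and GRCm38. How the authors filtered cells or dealt with doublets is not stated there. No doublet caller was run, and no cell was left out.

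Counts were summed per mouse and group and scaled with TMM factors from edgeR 4.0.16 (R 4.3.3), and DESeq2 1.42.0 gave alternative size factors. Log2 ratios were taken within each mouse with a pseudocount of 5 CPM over 13886 genes, of which those with a mean of at least 20 CPM were considered. The calculation was tested on simulated counts. The exact sign-flip test used Python 3.11.15. UMI depth per sum is given with the results. Named genes were the 15 in each direction with the largest smallest-mouse ratio among called genes with at least 50 CPM in the higher group, without immunoglobulin and predicted genes, plus Bcl6, Cxcr4, Cd83, Cd86, Foxo1, Myc, Mki67, Pax5, Bach2, Prdm1 and Irf4. A gene covered by the rule is not reported here. Other genes were named from 35 gene lists (33 of 569 members were absent) and 12 lists by mitotic or replication role. Members and lists were chosen with earlier results of these data known, and the role lists, the comparisons with clusters 1 and 3 and the genes Mki67, Kif11, Cenpa and Ccnb2 shown there after values had been seen. Mouse is the replicate, and whether the mice were littermates is not given. Upstream sequences came from RefSeq (GRCm38.p6). Of 25174 entries with annotated transcripts, 19785 ended inside a transcript of the same gene when read as given and 0 when reversed.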

Additional observations from a re-analysis of the deposited data

How the results depend on the processing

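Of 105 higher and 49 lower genes, the counts stayed within 1.5-fold, and the 30 named genes kept their calls, under total UMI scaling, DESeq2 size factors, a pseudocount of 1 CPM, no minimum, DZ and LZ cells as the reference, DZ members only, thinning to 2000 UMIs, and removal of immunoglobulin genes or of cells with RNA of other types. A pseudocount of 20 CPM left 32 lower genes. Against LZ cells 174 genes were higher, and Hist1h2ae lost its call. The 10 LZ cells of cluster 7 against LZ cells gave 191 lower genes, from 2 to 4 cells a mouse. That setting kept 24 of the 30 named calls, and its median over all genes was -0.53. Within G2M, 15 genes were higher and 33 lower. Of the comparisons added after seeing the data, that against cluster 1 gave 19 higher and 66 lower genes and that against cluster 3 gave 76 higher and 4 lower. In these 3 comparisons 23, 22 and 12 of the 30 named calls were kept. Against cluster 3, Hist1h2ae, Hist1h2ap, Tcf19 and Rrm2 reversed, to log2 ratios of 0.49, 0.90, 0.27 and 0.52. The cause of these shifts was not tested. Leaving out each mouse gave 114 to 118 higher and 59 to 72 lower genes, since fewer mice must pass, and a UMI log2 ratio of 0.39 to 0.51. The median of all genes was -0.08 with TMM, -0.04 with total UMIs and 0.00 with DESeq2, and -0.28 after thinning. Every ratio and the UMI test are paired by mouse. Mouse 1, with 22 cells, limits genes of low level.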

Other observations

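Light chain use differed in value between the groups. Cells with more Iglc1 to Iglc3 than Igkc UMIs made up 37.5% ± 1.79 of cluster 7 (SD, n = 3 mice), against 55.3% ± 3.10 of DZ cells of other clusters. Among G2M DZ cells the share was 38.2% ± 4.97 in cluster 1 and 54.8% ± 3.71 in cluster 3. UMIs of both chains were found in 19 of 22, 48 of 48 and 69 of 71 cells of cluster 7, so the majority chain, not presence, was used. The variable gene Iglv2 had 4.30, 3.18 and 15.2 CPM in cluster 7, against 169, 168 and 150 CPM in other DZ cells. Whether immunoglobulin genes entered the authors' clustering is not given in the sources used here, so no test was made.

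On the remaining gene lists, 1 of 10 genes of positive selection and the Myc response was lower than in other DZ cells. No gene was called on the lists of early G1, type I interferon, p53 targets, double-strand break repair, nuclear retained transcripts, glycolysis or cholesterol synthesis. The same held for chaperones of the endoplasmic reticulum, heat shock, immediate early genes, plasma cells and memory B cells. It also held for actin and for heavy and light chain constant regions. Over all 5206 genes 2.02% were called higher and 0.941% lower, so short lists can give no call. Members considered were few on some lists, at 2 of 17 for memory B cells, 6 of 15 for immediate early genes, 7 of 15 for plasma cells and 11 of 40 for interferon. No call is also not the same as no shift. Double-strand break repair had a median log2 ratio of -0.56, with 1 of 11 genes above 0.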
